A study of Homo sapiens with 12 samples.

Results

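Aminoacyl-tRNA synthetases join each amino acid to the tRNA that carries it to the ribosome, so every protein made in a cell depends on them. Human cells keep separate sets of these enzymes for the cytosol and for the mitochondrion, and both sets are encoded in the nucleus and translated on cytosolic ribosomes. A few genes, among them KARS1 and GARS1, make a cytosolic and a mitochondrial form from the same locus, and several cytosolic enzymes sit together in a multi-synthetase complex. Several cytosolic synthetase genes are known targets of ATF4, the transcription factor that raises amino acid supply genes during amino acid shortage and other stress.

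The 35 synthetase genes described here, 19 for cytosolic and 16 for mitochondrial enzymes, were chosen by symbol from the 60662 genes of the deposited count tables. All 35 matched an Ensembl gene in those tables and in the 12224-gene table of ribosome footprint signals, and all 35 passed the filters on low values in RNA and in footprints. The cells were HEK293T, an established human embryonic kidney line that carries the SV40 large T antigen, labelled as wild type. In the STM2457 arm they received 20 µM of STM2457 in 0.2% DMSO for 6 h. This compound inhibits METTL3, which writes N6-methyladenosine (m6A), a mark that can speed mRNA decay. In the DMSO arm they received 0.2% DMSO alone for the same 6 h. Cells of both arms were given 10% extra fetal bovine serum 1 h before lysis, and cycloheximide, a drug that stops elongating ribosomes, at 100 µg/ml for 3 min. Each arm has 4 libraries of poly(A) RNA (RNA-seq) and 2 libraries of ribosome footprints of 26 to 34 nt (Ribo-seq). Whether replicates came from separate cultures is not stated, and the p-values below therefore reflect differences among libraries that may be purely technical.

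The RNA-seq libraries held 43112223 to 51425432 gene counts each. Reads recovered from the footprint signals were summed over the genes of the 12224-gene table. They came to 4039314 and 3898620 in the STM2457 arm and 4711513 and 3198063 in the DMSO arm, and are not totals of the libraries. Counts of the 92 ERCC spike-in RNAs made up 0.415% to 0.466% of the STM2457 libraries and 0.389% to 0.408% of the DMSO libraries. STM2457 replicate 4 had the highest spike-in share. Scaling to the spike-ins, in place of the usual scaling to the bulk of the genes, put the median log2 fold change of all genes at -0.19 in place of 0.00, and changes below are given relative to the bulk of the genes unless the spike-ins are named. Of the markers used to check the cell line, the summed RNA of 5 genes known from HEK293 cells was 483.9 to 512.1 CPM (counts scaled to a common library size) with STM2457 and 424.1 to 450.5 CPM with DMSO. The list went both ways, since 2 of the 5 rose (NEFL and NEFM) and 2 fell (INA and NEFH), with a median log2 fold change of -0.00. The summed level of 7 fibroblast markers was 18.4 to 19.8 CPM with STM2457 and 17.7 to 22.3 CPM with DMSO, most of it from COL1A1. That of 6 epithelial carcinoma markers was 6.62 to 8.08 CPM with STM2457 and 7.15 to 8.35 CPM with DMSO, most of it from CDH1, and KRT19 was at 0 in every library. That of 5 blood markers was at most 1.20 CPM with STM2457 and 1.50 CPM with DMSO, with HBB at 0. The part of these marker levels in the results below was not tested. A fall in the RNA of a gene in such bulk samples does not tell less RNA per cell from fewer cells that express it.

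In RNA, 12 of the 35 synthetase genes rose with STM2457 and 12 fell, while 11 did not pass the test (edgeR quasi-likelihood, Benjamini-Hochberg adjusted p under 0.05 over all genes). Among all 17807 genes tested, 26.2% rose and 21.6% fell, which is 47.8% in either direction. The 12 in each direction are 34.3% of the synthetase genes. The median SE of the RNA change was 0.03 for cytosolic, 0.04 for mitochondrial and 0.06 for all genes tested. The part of this precision in the shares called was not tested. The median log2 fold change over the 35 genes was 0.01, against 0.00 over all genes tested. The synthetase genes thus moved in both directions, with 18 fold changes above and 17 below 0. In both arms the RNA-seq libraries of replicates 1 and 2 deviated from the arm's mean together and against those of replicates 3 and 4, though the labels name no batch. Within replicates 1 and 2 alone 11 synthetase genes rose and 12 fell, against 24.2% and 20.1% of all genes, and within replicates 3 and 4 alone 8 rose and 10 fell, against 20.7% and 15.4%. With this division as a term of the edgeR fit, chosen after seeing the data, 14 rose and 12 fell. VARS2 and IARS1 were added to those that rose. Calls among all genes increased too, to 5122 higher and 4482 lower from 4669 and 3842 without the term.

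Calls in both directions were found among the cytosolic and among the mitochondrial enzymes. Of the 19 cytosolic genes, 7 rose and 6 fell, and their log2 fold changes ran from -0.34 to 0.23 with a median of 0.03. With spike-in scaling these cytosolic counts became 0 higher and 12 lower, with a median of -0.17, while 12.1% of all genes were higher and 47.1% lower under that scaling. Of the 16 mitochondrial genes, 5 rose and 6 fell, with log2 fold changes from -1.01 to 1.25 and a median of -0.05. Spike-in scaling gave 2 higher and 10 lower among them, with a median of -0.24. The median absolute log2 change was 0.12 for cytosolic genes, 0.23 for mitochondrial genes and 0.18 for all genes tested, a difference that was not tested. Every STM2457 library lay above every DMSO library in 6 cytosolic and 5 mitochondrial genes, and below in 6 cytosolic and 5 mitochondrial genes. Among all genes tested 24.9% lay above and 19.8% below in this way, 44.7% together. A change of at least 1.25-fold was seen in 1 cytosolic gene (5.26%) and in 4 mitochondrial genes (25.0%), against 29.6% of all genes tested. The summed RNA of the cytosolic genes was 4061 to 4241 CPM with STM2457 and 4080 to 4196 CPM with DMSO, and the arms overlapped. The summed RNA of the mitochondrial genes was 966.5 to 987.7 CPM with STM2457 and 992.7 to 1008 CPM with DMSO, so the arms lay apart by a few CPM.

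**Figure D1:**
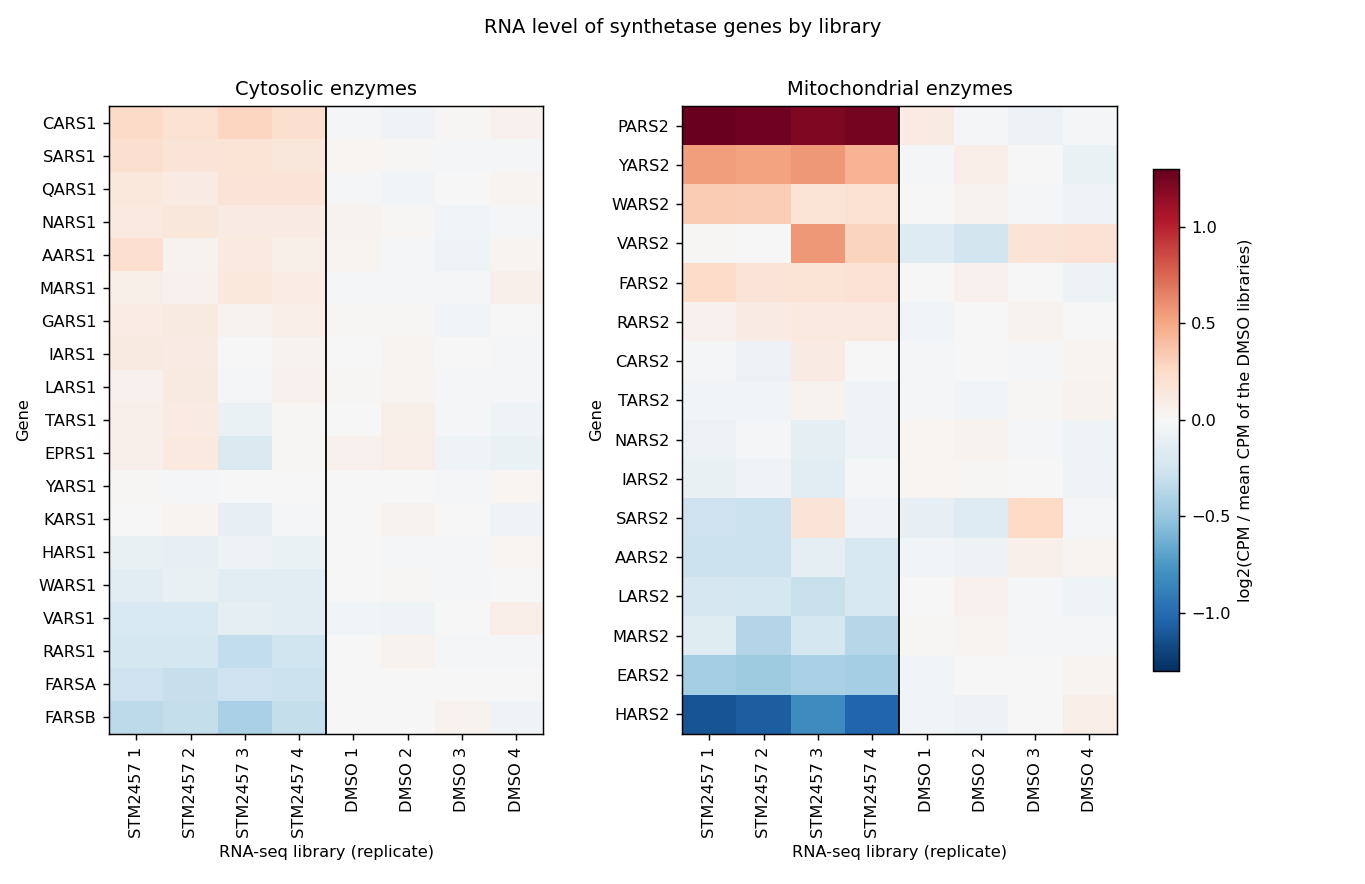
RNA level of each synthetase gene (rows) in each RNA-seq library (columns), as log2 of its CPM over the mean CPM of the 4 DMSO libraries, with cytosolic enzymes on the left and mitochondrial enzymes on the right. PARS2 (log2 fold change 1.25) and HARS2 (-1.01) stand out among the mitochondrial genes, while the cytosolic genes stay between -0.34 and 0.23. Under spike-in scaling the median fold change of all genes would be -0.19.

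PARS2, the mitochondrial enzyme for proline (ENSG00000162396.6, chromosome 1), had the largest increase of the 35 genes. Its RNA was at 41.1, 40.4, 39.2 and 40.0 CPM in the STM2457 libraries and at 18.2, 16.7, 15.9 and 16.6 CPM in the DMSO libraries. Every STM2457 library was thus above every DMSO library. The log2 fold change was 1.25 ± 0.04 (SE, edgeR adjusted p = 2.36e-10), rank 126 from the top of 17807 genes. With spike-in scaling it was 1.05 (adjusted p = 1.30e-13).

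Footprints on PARS2 rose as well, by a larger value than its RNA. The normalized footprint signal was 930.5 and 909.7 with STM2457 and 292.9 and 183.1 with DMSO, from 245 and 233 reads with STM2457 and 91 and 38 reads with DMSO. The DMSO libraries differed more from each other than the STM2457 libraries did, but the arms stayed far apart. The footprint log2 fold change was 1.99 ± 0.19 (SE, limma adjusted p = 3.90e-12), the sixth largest increase (rank 6) of 10906 genes tested. It ran from 1.65 to 2.32 when each footprint library was left out in turn.

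HARS2, the mitochondrial enzyme for histidine (ENSG00000112855.17, chromosome 5), had the largest decrease. Its RNA was at 14.4, 14.9, 17.8 and 15.3 CPM with STM2457 and at 30.5, 29.9, 31.4 and 33.3 CPM with DMSO. The highest STM2457 library, replicate 3, was still below the lowest DMSO library. The log2 fold change was -1.01 ± 0.06 (SE, edgeR adjusted p = 4.21e-08), and -1.20 with spike-in scaling. Its footprint signal was 186.1 and 206.9 with STM2457 and 711.3 and 708.5 with DMSO, from 49 and 53 reads with STM2457 and 221 and 147 reads with DMSO. The footprint log2 fold change of -1.85 ± 0.20 (SE, limma adjusted p = 8.34e-11) placed HARS2 at rank 10884 of 10906 genes.

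HARS1, the cytosolic enzyme for histidine, lies head to head with HARS2 on chromosome 5, and the RefSeq start sites of the pair are 85 bp apart. The stretch between them is shown because these neighbours share it while their RNA changed to different degrees. It is 84 bases long, is written in the direction of HARS2 and is taken from RefSeq on GRCh38.p14 (chr5:140691371-140691454, + strand).
HARS1 to HARS2: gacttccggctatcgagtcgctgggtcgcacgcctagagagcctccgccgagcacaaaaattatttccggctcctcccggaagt
HARS1 RNA was at 112.3, 111.1, 114.5 and 113.0 CPM with STM2457 and at 119.5, 118.8, 118.8 and 121.6 CPM with DMSO. These arms did not overlap, yet the fall of HARS1 was small (log2 fold change -0.09, edgeR adjusted p = 0.00789). HARS1 footprints were at 2913 and 2835 with STM2457 and at 3312 and 3460 with DMSO (log2 fold change -0.24, limma adjusted p = 0.0982), which did not pass the test. The ratio of HARS2 to HARS1 within a library, set to 1 for the DMSO mean, was 0.490 to 0.595 in RNA with STM2457 and 0.964 to 1.05 with DMSO. In footprints the same ratio was 0.305 to 0.348 with STM2457 and 0.976 to 1.02 with DMSO. Such a ratio does not depend on how libraries are scaled. HARS1 and HARS2 encode closely related proteins, and how reads that match more than 1 gene were assigned is not given in the sources used here.

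YARS2, the mitochondrial enzyme for tyrosine, had the second largest increase. Its RNA was at 68.2, 67.4, 69.3 and 64.3 CPM with STM2457 and at 46.6, 49.9, 46.9 and 44.3 CPM with DMSO, with no overlap. Its log2 fold change was 0.52 ± 0.04 (SE, edgeR adjusted p = 2.22e-07) and 0.33 with spike-in scaling. YARS1, its cytosolic counterpart, had a log2 fold change of -0.00 and did not pass the test. YARS2 footprints were at 2400 and 2362 with STM2457 and at 1835 and 1947 with DMSO, a log2 fold change of 0.33 (limma adjusted p = 0.0253). This footprint call was lost when either DMSO library or STM2457 replicate 1 was left out, where the log2 fold change was 0.29 to 0.38.

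The other mitochondrial genes that rose in RNA moved less. WARS2, the enzyme for tryptophan, was at 47.3, 46.8, 42.6 and 43.2 CPM with STM2457 and at 37.8, 38.8, 37.3 and 36.3 CPM with DMSO (log2 fold change 0.26, edgeR adjusted p = 1.92e-04). FARS2, the enzyme for phenylalanine, was at 12.6, 11.9, 12.0 and 12.1 CPM with STM2457 and at 10.6, 11.0, 10.7 and 10.2 CPM with DMSO (0.19, adjusted p = 0.00560). Neither pair of arms overlapped, but with spike-in scaling WARS2 was at 0.06 and FARS2 at -0.00, and neither passed. RARS2, the enzyme for arginine, rose by 0.10 (edgeR adjusted p = 0.0127), though with spike-in scaling only PARS2 and YARS2 rose among the mitochondrial genes. None of these 3 genes had a footprint change that passed the test, with log2 fold changes of 0.02 for WARS2, -0.12 for FARS2 and -0.16 for RARS2.

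EARS2, which charges tRNA with glutamate in mitochondria, had the next largest fall after HARS2. Its RNA was at 51.1, 50.6, 51.9 and 51.4 CPM with STM2457 and at 68.1, 69.8, 69.4 and 71.4 CPM with DMSO. The 4 libraries of each arm lay close together and the arms were well separated, with a log2 fold change of -0.44 ± 0.03 (SE, edgeR adjusted p = 3.91e-08). EARS2 footprints were at 596.3 and 499.8 with STM2457 and at 872.2 and 901.3 with DMSO (log2 fold change -0.70, limma adjusted p = 6.39e-04). In the cytosol 1 gene, EPRS1, encodes a joined enzyme for glutamate and proline, whereas EARS2 and PARS2 are its separate mitochondrial counterparts. EPRS1 RNA had a log2 fold change of 0.01 and did not pass the test. Relative to EPRS1 in the same library, EARS2 RNA was at 0.665 to 0.844 of the DMSO mean with STM2457, against 0.937 to 1.09 with DMSO. PARS2 on the same scale was at 2.20 to 2.64 with STM2457, against 0.936 to 1.05 with DMSO. The mitochondrial enzymes for these 2 amino acids therefore moved in opposite directions around a cytosolic enzyme whose arms overlapped.

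MARS2, LARS2 and AARS2, the mitochondrial enzymes for methionine, leucine and alanine, also fell in RNA. MARS2 was at 32.1, 27.5, 30.5 and 27.6 CPM with STM2457 and at 36.2, 36.6, 35.2 and 35.1 CPM with DMSO (log2 fold change -0.28, edgeR adjusted p = 4.60e-04). LARS2 was at 88.5, 87.8, 84.0 and 88.9 CPM with STM2457 and at 103.5, 107.1, 102.2 and 98.9 CPM with DMSO (-0.24, adjusted p = 3.58e-05). AARS2 was at 64.5, 64.5, 71.9 and 67.6 CPM with STM2457 and at 76.0, 74.6, 81.8 and 79.7 CPM with DMSO (-0.22, adjusted p = 7.91e-04). In all 3 genes every STM2457 library was below every DMSO library. Only LARS2 of these passed the test in footprints, with signals of 1595 and 1464 with STM2457 and 1954 and 1909 with DMSO (log2 fold change -0.34, limma adjusted p = 0.0333). That call was lost when either DMSO library or STM2457 replicate 2 was left out, where the value was -0.28 to -0.35. IARS2 fell by 0.08 in RNA (adjusted p = 0.0460) with overlapping arms, and its call was lost in 6 of the 8 fits that left out a library.

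The remaining mitochondrial genes, CARS2, NARS2, SARS2, TARS2 and VARS2, did not pass the test in RNA or footprints over all replicates. VARS2, the enzyme for valine, is singled out after its values were seen, because its libraries split by replicate number. VARS2 RNA was at 38.2, 38.1, 55.8 and 46.2 CPM with STM2457 and at 33.6, 32.1, 42.5 and 43.1 CPM with DMSO. Replicates 3 and 4 were higher than replicates 1 and 2 in both arms, and the arms overlapped. Within replicates 1 and 2 its RNA log2 fold change was 0.20 (edgeR adjusted p = 0.00215), within replicates 3 and 4 it was 0.25 (adjusted p = 0.0140), and both passed. Over all replicates the log2 fold change was 0.24 ± 0.13 in RNA (SE) and -0.41 ± 0.18 in footprints (SE), where the signals were 368.4 and 398.2 with STM2457 and 498.9 and 520.5 with DMSO.

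**Figure D2:**
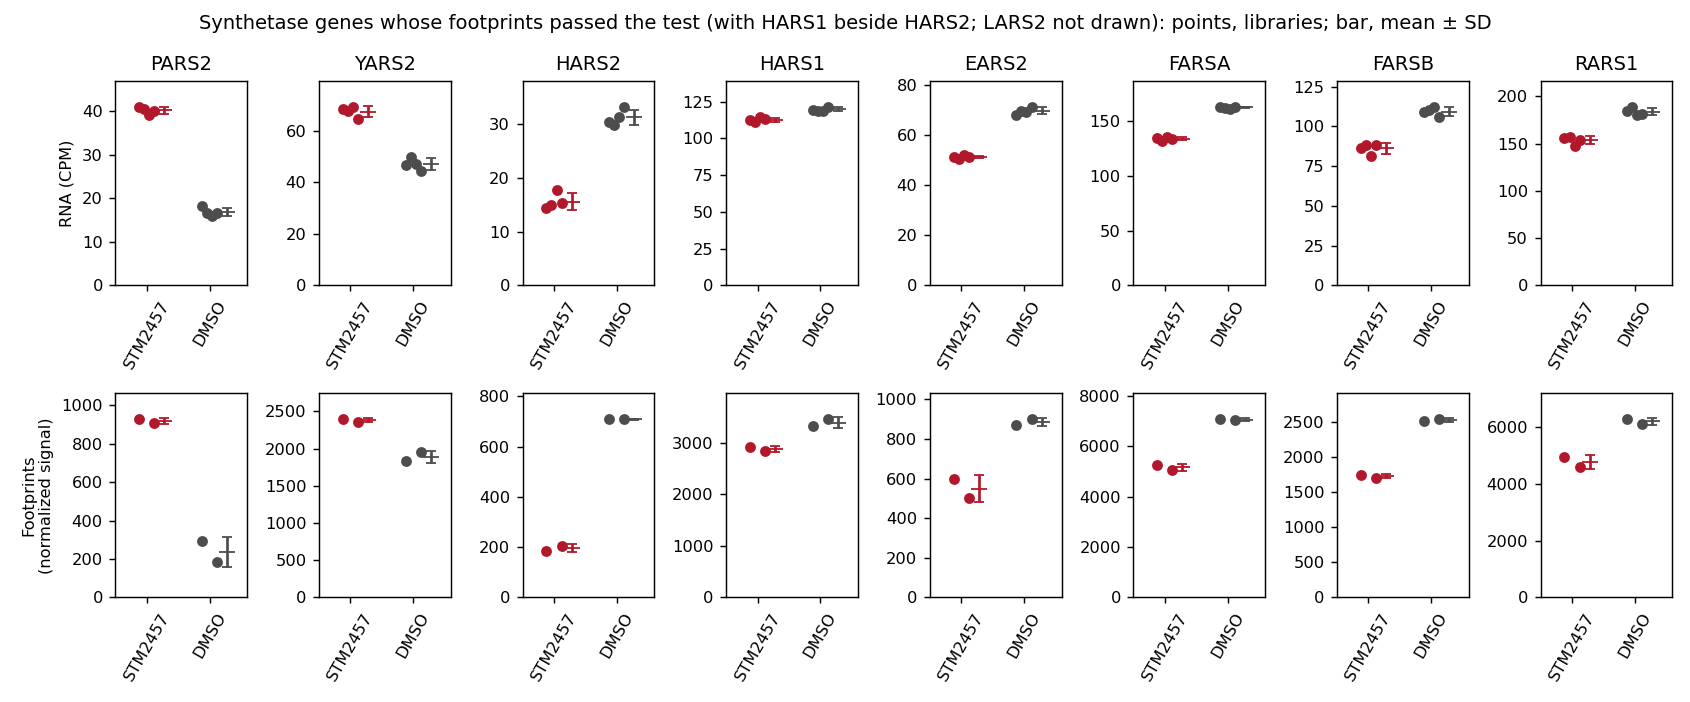
RNA in CPM (upper row, 4 libraries per arm) and normalized footprint signal (lower row, 2 libraries per arm) for 7 synthetase genes whose footprints passed the test and for HARS1, with STM2457 in red on the left and DMSO in grey on the right of each panel. Points are libraries, and the bar beside them is the mean ± SD; the PARS2 and HARS2 arms differ most, and footprints of both genes are further apart than RNA.

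Among the cytosolic enzymes, the largest changes were decreases in both subunits of phenylalanyl-tRNA synthetase and in RARS1, the enzyme for arginine. FARSA, the alpha subunit, was at 134.9, 132.1, 135.1 and 134.0 CPM with STM2457 and at 162.9, 162.3, 161.3 and 163.2 CPM with DMSO. FARSB, the beta subunit, was at 86.6, 88.2, 81.3 and 88.3 CPM with STM2457 and at 109.1, 110.0, 112.4 and 105.6 CPM with DMSO. RARS1 was at 156.5, 157.5, 147.6 and 153.5 CPM with STM2457 and at 184.6, 189.3, 180.9 and 181.1 CPM with DMSO. No STM2457 library reached the lowest DMSO library in any of the 3 genes. The RNA log2 fold changes were -0.28 for FARSA, -0.34 for FARSB and -0.26 for RARS1, each with an SE of at most 0.03 (edgeR adjusted p = 3.21e-07 for FARSA, 1.92e-06 for FARSB and 5.90e-06 for RARS1).

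These 3 were also the only cytosolic genes of the 19 whose footprints passed the test. FARSA footprints were at 5264 and 5052 with STM2457 and at 7090 and 7022 with DMSO (log2 fold change -0.45, limma adjusted p = 9.12e-05). FARSB footprints were at 1743 and 1702 with STM2457 and at 2507 and 2540 with DMSO (-0.55, adjusted p = 1.18e-04). RARS1 footprints were at 4922 and 4595 with STM2457 and at 6276 and 6092 with DMSO (-0.38, adjusted p = 0.00140). All 3 calls held in each of the 4 fits that left out a footprint library. The ratio of FARSB to FARSA RNA, set to 1 for the DMSO mean, was 0.895 to 0.993 with STM2457 and 0.962 to 1.04 with DMSO. The arms of this ratio overlapped. In footprints, with 2 libraries per arm, the same ratio was 0.926 to 0.942 with STM2457 and 0.989 to 1.01 with DMSO, without overlap.

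Smaller falls in RNA passed the test for VARS1 (-0.16), WARS1 (-0.13) and HARS1 (-0.09). The cytosolic genes that rose also moved by small amounts, led by CARS1, the enzyme for cysteine. CARS1 was at 73.6, 71.1, 75.2 and 71.6 CPM with STM2457 and at 60.8, 59.8, 62.7 and 64.4 CPM with DMSO (log2 fold change 0.23, edgeR adjusted p = 5.78e-05). SARS1, the enzyme for serine, was at 265.3, 258.4, 260.6 and 255.4 CPM with STM2457 and at 234.2, 232.5, 227.3 and 226.2 CPM with DMSO (0.18, adjusted p = 3.57e-05). QARS1, the enzyme for glutamine, was at 178.8, 175.3, 182.9 and 182.0 CPM with STM2457 and at 161.1, 158.7, 162.8 and 166.7 CPM with DMSO (0.15, adjusted p = 3.29e-04). NARS1, the enzyme for asparagine, was at 169.6, 172.0, 166.9 and 168.0 CPM with STM2457 and at 160.1, 157.0, 151.5 and 153.4 CPM with DMSO (0.12, adjusted p = 0.00140). The arms of these 4 genes did not overlap, but none of the rises passed the test with spike-in scaling, where CARS1 was at 0.04, SARS1 at -0.02, QARS1 at -0.05 and NARS1 at -0.08. AARS1 (0.12), MARS1 (0.09) and GARS1 (0.09) also rose, though with spike-in scaling 0 cytosolic genes were called higher. The AARS1 call was lost when STM2457 replicate 1 or DMSO replicate 2 or 3 was left out, and the MARS1 call when DMSO replicate 2 or 3 was left out.

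The 6 cytosolic genes that did not pass, EPRS1, IARS1, KARS1, LARS1, TARS1 and YARS1, had RNA log2 fold changes of -0.02 to 0.07. Of these, EPRS1, IARS1, KARS1 and LARS1 belong to the multi-synthetase complex. Of the 7 complex members described here, 2 rose (QARS1 and MARS1) and 1 fell (RARS1), with a median of 0.05, against 26.2% higher and 21.6% lower among all genes. Of the other 12 cytosolic genes, 5 rose and 5 fell, with a median of 0.01. RARS1 was the complex member with the largest change.

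ATF4 binds C/EBP-ATF elements, so the promoters of the synthetase genes were searched for TGATGNAAN, a spelled-out form of that element, on either strand. The RefSeq table for GRCh38.p14 gives windows from 250 bases before to 50 bases after each start site. It held 39 windows for 30 of the 35 genes, and it held none for LARS1, VARS1, YARS1, AARS2 and VARS2. A match was found in 7 of the 16 cytosolic genes that have a window (7 of 21 windows, 33.3%), and in 1 of the 14 mitochondrial genes (1 of 18 windows, 5.56%), against 3.61% of all 35116 windows. The narrower form TGATGCAA, which lies within the first, was found in 28.6% of the cytosolic windows and in 0.866% of all windows. The matches are shown with 10 bases on either side, in the direction of the gene and with the matched letters in capitals. They are shown because none of these cytosolic genes fell with the usual scaling, under which 21.6% of all genes fell. A match shows that the letters are present and not that ATF4 binds there.
TARS1 (chr5:33440956-33440984, + strand): gcgcctttcgATTGCATCAgctggtccag
GARS1 (chr7:30594834-30594862, + strand): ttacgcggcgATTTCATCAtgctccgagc
IARS1 (chr9:92293693-92293721, - strand): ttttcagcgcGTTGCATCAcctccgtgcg
CARS1 (chr11:3057408-3057436, - strand): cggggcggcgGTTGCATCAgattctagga
MARS1 (chr12:57488053-57488081, + strand): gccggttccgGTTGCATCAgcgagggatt
AARS1 (chr16:70289676-70289704, - strand): ttttctcgcaGTTGCATCAgccaagttag
NARS1 (chr18:57621804-57621832, - strand): ctacgctctcTGATGCAACgccggaatcg
YARS2 (chr12:32756076-32756104, - strand): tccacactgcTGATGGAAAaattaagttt
Counted from the start site, with the first transcribed base as 1, the match covers bases -3 to 6 in CARS1, -5 to 4 in MARS1 and 2 to 10 in TARS1, and it lies further upstream in AARS1 (-188 to -180) and YARS2 (-197 to -189).

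Of the 7 cytosolic genes with a match, 5 rose in RNA (AARS1, CARS1, GARS1, MARS1 and NARS1) and 0 fell. Their median change was 0.09 (log2). Of the 9 cytosolic genes with windows and no match, 2 rose (QARS1 and SARS1) and 5 fell (FARSA, FARSB, HARS1, RARS1 and WARS1), with a median of -0.09. Among all genes tested 26.2% rose and 21.6% fell. IARS1 (0.07) and TARS1 (0.03), which have a match, did not pass the edgeR test. With spike-in scaling 0 rose and 2 fell among the genes with a match (median -0.10). Among those without, 0 rose and 7 fell (median -0.28), against 12.1% higher and 47.1% lower among all genes. In footprints none of the genes with a match passed in either direction, and 3 of those without fell. Among all genes 9.59% were higher and 6.13% lower in footprints. This split of the 19 genes was made after their values were known and was not tested.

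**Figure D3:**
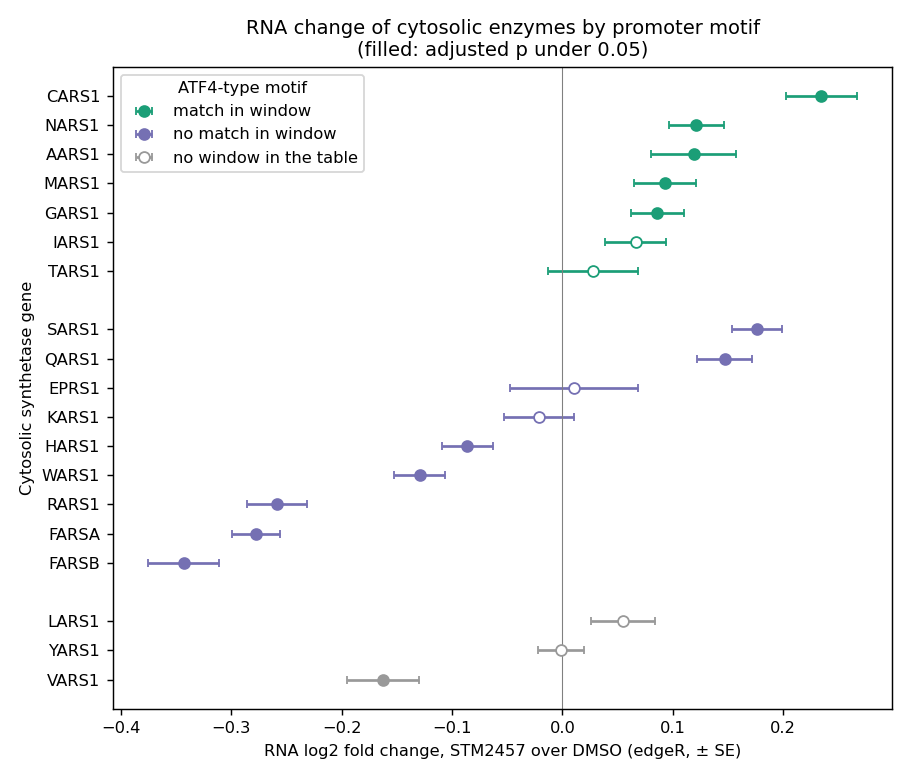
RNA log2 fold change (STM2457 over DMSO, edgeR, ± SE) of the 19 cytosolic synthetase genes, grouped by whether their promoter window holds TGATGNAAN; filled points passed the test. The 7 genes with a match lie between 0.03 and 0.23, and the 9 without lie between -0.34 and 0.18; with spike-in scaling the medians of these groups move to -0.10 and -0.28.

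In footprints, 2 of the 35 genes rose (PARS2 and YARS2) and 6 fell (HARS2, EARS2, LARS2, FARSA, FARSB and RARS1), against 9.59% higher and 6.13% lower among all 10906 genes tested. The 6 that fell are 17.1% of the synthetase genes and the 2 that rose are 5.71%. Among the cytosolic genes 0 rose, with 0 also at an unadjusted p under 0.05 in limma and 0 with edgeR on recovered reads. All 8 genes had passed the RNA test in the same direction, and 27 of the 35 genes had RNA and footprint changes of the same sign. The median footprint log2 fold change was -0.11 for cytosolic and -0.10 for mitochondrial genes, against -0.02 for all genes tested. Arms that did not overlap were seen in 10 of 19 cytosolic genes on the lower side and in 3 on the higher side, and in 7 and 3 of 16 mitochondrial genes. With 2 libraries per arm such a separation was seen in 28.4% of all genes on the lower side and in 25.7% on the higher side. The summed footprint signal was 115300 and 112500 with STM2457 and 118600 and 120200 with DMSO for the cytosolic genes, and 18600 and 19120 with STM2457 and 19460 and 19560 with DMSO for the mitochondrial genes.

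**Figure D4:**
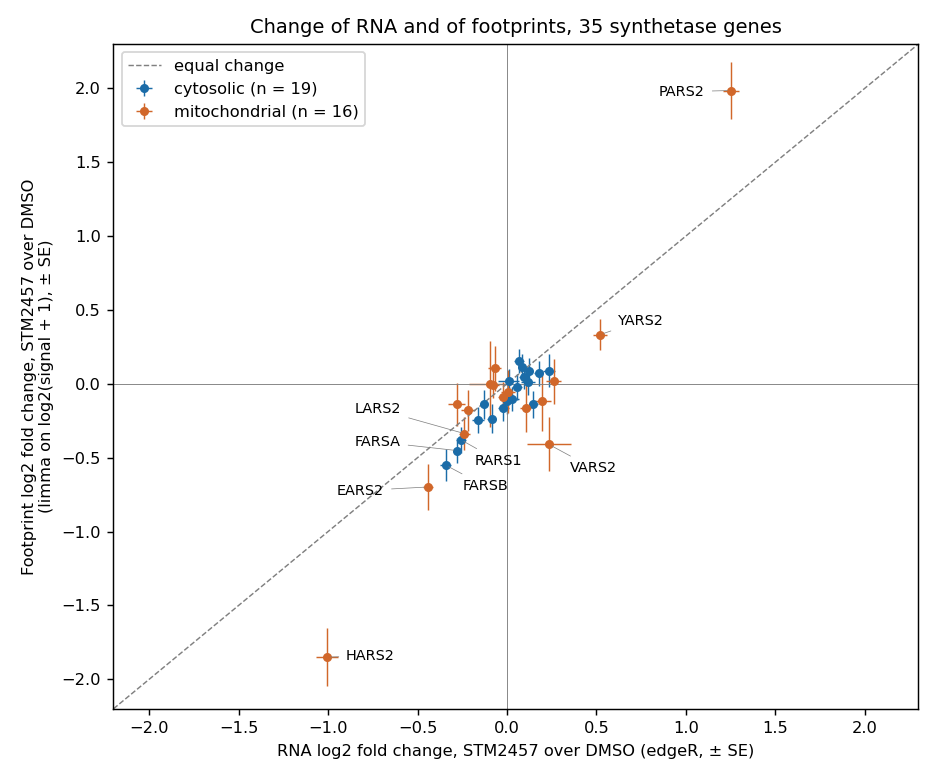
Footprint log2 fold change (limma on log2(signal + 1)) against RNA log2 fold change (edgeR) of the 35 synthetase genes, STM2457 over DMSO, with bars of ± SE; the dashed line marks equal change. PARS2 (1.25 in RNA, 1.99 in footprints) and HARS2 (-1.01 and -1.85) lie beyond the line at both ends, and most other genes lie near 0.

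Translational efficiency, the footprint signal of a library over the mean RNA signal of its arm in the same table, changed in 0 of the 35 genes by the limma interaction test with a weight per assay. That test called 1.04% of all 10906 genes, 0.229% higher and 0.807% lower. At an unadjusted p under 0.05 it gave 1 synthetase gene higher and 2 lower, and the share of all genes at that looser threshold is not given here. An edgeR interaction test on counts and recovered reads gave 1 higher (PARS2) and 2 lower (HARS2 and QARS1), against 1.14% higher and 2.76% lower among all genes. PARS2 efficiency was 1.60 and 1.56 with STM2457 and 1.15 and 0.722 with DMSO, a log2 change of 0.79 ± 0.23 (SE, limma adjusted p = 0.146). HARS2 efficiency was 0.643 and 0.715 with STM2457 and 1.20 and 1.19 with DMSO, a log2 change of -0.81 ± 0.22 (SE, adjusted p = 0.107). The arms of both genes lay apart in the direction of their RNA change. With the edgeR interaction PARS2 was at 0.69 (adjusted p = 0.0225) and HARS2 at -0.80 (adjusted p = 0.0251), so for both genes the call depends on the test. Without DMSO replicate 2, which held 38 PARS2 footprint reads, the PARS2 change was 0.45, and without DMSO replicate 1 it was 1.13. QARS1 efficiency was 1.10 and 1.06 with STM2457 and 1.26 and 1.25 with DMSO (log2 change -0.21, limma adjusted p = 0.519, and -0.24 with edgeR, adjusted p = 0.0321).

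Mean efficiency in DMSO cells differed several-fold among the synthetase genes. The lowest mean values were those of RARS2 (0.475) and VARS2 (0.597), and the highest were those of VARS1 (1.93) and YARS2 (1.81). The cytosolic genes ran from 0.938 in IARS1 to 1.93 in VARS1. Their median per library was 1.33 and 1.30 with STM2457 and 1.36 and 1.37 with DMSO, against 1.04 in each library for all genes tested. The median of the mitochondrial genes was 1.34 and 1.20 with STM2457 and 1.23 and 1.07 with DMSO. The order of the genes by efficiency was described and not tested, and genes next to each other in it often had overlapping libraries. VARS2 efficiency was 0.387 and 0.419 with STM2457 and 0.585 and 0.610 with DMSO, with no overlap (log2 change -0.56, limma adjusted p = 0.777), and did not pass. The authors' deposited table gives log2 changes of efficiency of 0.75 for PARS2 and -0.84 for HARS2, without a p-value.

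**Figure D5:**
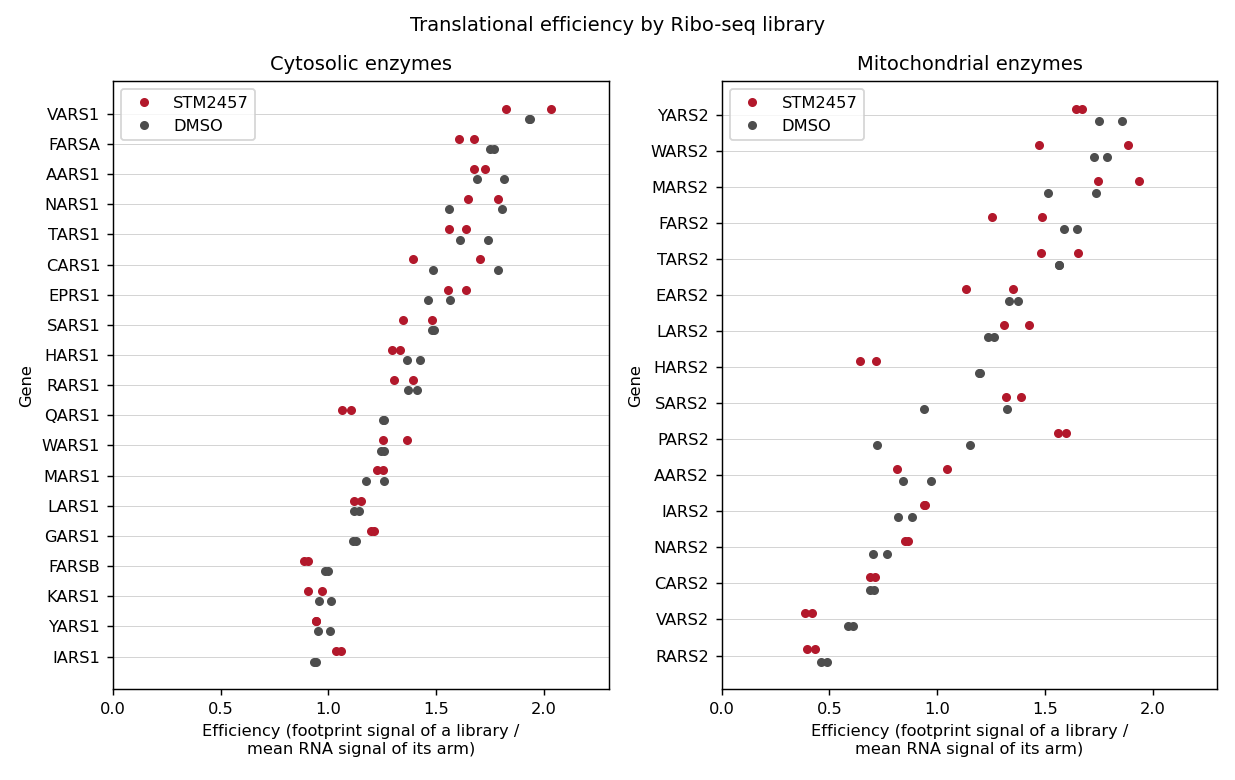
Translational efficiency (footprint signal of a library over the mean RNA signal of its arm) of each synthetase gene in the 2 STM2457 (red, upper) and 2 DMSO (grey, lower) footprint libraries, ordered by the DMSO mean. PARS2 (1.60 and 1.56 with STM2457, 1.15 and 0.722 with DMSO) and HARS2 (0.643 and 0.715 with STM2457, 1.20 and 1.19 with DMSO) have the largest log2 changes of efficiency by the limma fit among the 35 genes (0.79 and -0.81), and both passed the edgeR interaction test and not the weighted limma test.

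Of 15 partners and other tRNA charging genes, 3 rose and 5 fell in RNA, with a median of -0.00, against 26.2% higher and 21.6% lower among all genes. With spike-in scaling 0 rose and 9 fell, against 12.1% and 47.1% of all genes. The 4 with the smallest p were DTD2 (-0.49), GATC (-0.25), SEPSECS (-0.49) and SEPHS2 (0.18). GATC is a subunit of the mitochondrial amidotransferase that turns glutamate charged by EARS2 into glutamine. SEPSECS makes selenocysteine on its tRNA, and SEPHS2 supplies selenium for it. AIMP1 (0.09) and AIMP2 (0.13), scaffold proteins of the multi-synthetase complex, rose, but with spike-in scaling SEPHS2 was at -0.02, AIMP1 at -0.11 and AIMP2 at -0.07. The AIMP1 call was lost in 4 of the 8 fits that left out a library. GATC had 44451 gene counts over the 8 libraries but 144 RNA reads in the series table, where its change did not pass (-0.41, edgeR adjusted p = 0.132). In footprints 0 of the 14 genes tested passed with limma in either direction. An unadjusted p under 0.05 was reached by 2 lower genes (SEPSECS and PSTK) and 0 higher genes, and the share of all genes at that threshold is not given here. With edgeR on recovered reads 1 gene (SEPSECS) was called lower, a test that called 10.2% of all genes higher and 5.57% lower.

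Of 10 mitochondrial translation factors, 2 rose and 4 fell in RNA, with a median of 0.01, against 26.2% higher and 21.6% lower among all genes. With spike-in scaling 1 rose and 7 fell, against 12.1% and 47.1% of all genes. GFM1 (-0.42), the elongation factor that moves the mitochondrial ribosome along, and MTRFR (-0.41), a rescue factor of stalled mitochondrial ribosomes, fell in RNA and also in footprints (-0.46 for GFM1 and -0.94 for MTRFR). The footprint call of GFM1 was lost without DMSO replicate 2 (-0.38), and that of MTRFR without DMSO replicate 1 or STM2457 replicate 2, with values of -1.18 to -0.70 over the 4 fits that left out a library. MTIF3, an initiation factor, rose by 0.18 in RNA, and was at -0.02 with spike-in scaling. The other of the 2 that rose, TSFM, was at 0.83, but it had only 392 gene counts over the 8 libraries against 14137 RNA reads in the series table, where its change was 0.04 and did not pass (edgeR adjusted p = 0.331). Its RNA call thus depends on how its reads were counted.

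Of 22 other genes of the ATF4 pathway, 18 rose in RNA and 0 fell, against 26.2% higher and 21.6% lower among all genes. Their median change was 0.33 (log2). No gene of this list fell at an unadjusted p under 0.05 or in DESeq2. ASNS, 1 of the 4 not called, had only 1123 gene counts over the 8 libraries against 64659 RNA reads in the series table. From those table reads it rose (0.21, edgeR adjusted p = 1.82e-05). From table reads 17 of the 21 genes tested rose and 0 fell, against 28.4% and 26.9% of all genes. With spike-in scaling 10 rose and 3 fell, with a median of 0.14, against 12.1% and 47.1% of all genes. The 4 with the smallest p were CHAC1 (1.64), which degrades glutathione, and the amino acid transporter genes SLC7A5 (0.49), SLC7A1 (0.60) and SLC3A2 (0.40). Footprints rose for 10 of the 20 genes tested and fell for 0, against 9.59% higher and 6.13% lower among all genes. With edgeR on recovered reads 0 fell as well, against 5.57% of all genes. At an unadjusted p under 0.05 in limma 0 fell too, and the share of all genes there is not given here. ATF4 itself rose in RNA (0.29) and in footprints (0.70), but its RNA was at 0.09 with spike-in scaling and did not pass there (edgeR adjusted p = 0.117). Its efficiency change was 0.48 (weighted limma adjusted p = 0.0246), and this call was lost in each of the 4 fits that left out a footprint library, where the value was 0.44 to 0.53. The median RNA change of the 7 cytosolic synthetases with a promoter match was 0.09, and the difference from this list was not tested. In the 26 promoter windows held for this list, TGATGNAAN was found in 19.2% and TGATGCAA in 3.85%, against 33.3% and 28.6% of the cytosolic synthetase windows.

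The RNA reads behind the efficiency table were fewer than the gene counts, at a median over all genes of the table of 62.3% of them. For the synthetase genes they ranged from 37.2% in EARS2 to 109% in SARS2. When these reads were used for the RNA test, 4 cytosolic genes rose and 6 fell, and 3 mitochondrial genes rose and 6 fell, against 28.4% higher and 26.9% lower among all genes. AARS1, GARS1, MARS1, RARS2 and WARS2 no longer passed. PARS2 was at 1.23 and HARS2 at -1.01 in this test, EARS2 was at -0.54 and LARS2 at -0.44.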

How the data were processed

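RNA-seq and Ribo-seq libraries of HEK293T cells were compared between STM2457 and DMSO. Unnormalized read counts per Ensembl gene were deposited for each RNA-seq library. The deposited series table holds a normalized signal per library, and the authors' efficiency as a ratio of mean footprint signal to mean RNA signal with its change as log2. Its RNA means, in each of its 12224 genes, are those of replicates 1 to 3 alone. The submitters' processing notes name STAR 2.7.3a, featureCounts of Subread 2.0.3, SAMtools 1.10, UMI-tools 1.1.2, FastQC 0.11.9, DESeq2, bedtools 2.29.2 and the build GRCh38.p12, with no role given. The counted features and the strand setting are not given in the sources used here. The table's columns named WT were read as the DMSO arm.

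Counts were tested in R 4.3.3 by the quasi-likelihood test of edgeR 4.0.16 (TMM, filterByExpr), leaving out the 92 spike-in rows. The SE of an edgeR change is its size divided by the square root of F. Footprints were tested with limma 3.58.1 on log2(signal + 1), which understates changes of low genes, for the 10906 genes that averaged 10 or more recovered reads across the footprint libraries. Dividing the footprint signals by what 1 read is worth in a library gave whole reads within 0.1 for 100% of values. The efficiency test was the assay by treatment interaction in limma, each assay with its own weight (1.95 for RNA-seq and 0.263 for Ribo-seq). The threshold was an adjusted p of 0.05 (Benjamini-Hochberg over all genes tested). The main fits were tested on simulated data. Alternatives included DESeq2 1.42.0, spike-in scaling, other filters and leaving out libraries.

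The synthetase genes and gene lists were chosen with earlier results of these data known. Genes described one by one were those passing in footprints or efficiency, plus the 8 largest rises and 8 largest falls in RNA that passed, and up to 4 genes of smallest p per other list; others are named to complete a group, after their values were seen. A marker gene of the cell line is not reported here and was left out of its list.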

Additional observations from a re-analysis of the deposited data

Results flagged for a closer look

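Of 70 sets of 4 RNA-seq libraries examined, 1 for each of the 35 synthetase genes in each arm, a single library stood apart from the other 3 of its arm beyond Dixon's critical value for 4 samples. This was MARS1, the cytosolic enzyme for methionine, at 246.6 CPM in DMSO replicate 4, against 230.2 to 232.9 CPM in the other DMSO libraries. MARS1 rose by 0.09 on the log2 scale with all libraries and by 0.11 without that library. Chance alone marks about 1 set in 20.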

How the results depend on the processing

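Spike-in scaling changed the RNA calls most. It gave 0 cytosolic genes higher and 12 lower (median -0.17) and 2 mitochondrial genes higher and 10 lower (median -0.24). Of the 8 largest rises, it turned FARS2 (-0.00202), SARS1 (-0.019), QARS1 (-0.0486) and NARS1 (-0.075) below 0. The smaller rises are not listed here. Without STM2457 replicate 4, an alternative chosen after seeing the data, it gave 0 cytosolic genes higher and 12 lower (median -0.13) and 3 mitochondrial genes higher (median -0.21), with QARS1 at -0.0213 and NARS1 at -0.0393. The RNA reads of the series table, also chosen after seeing the data, gave 4 cytosolic (median -0.0104) and 3 mitochondrial genes higher, and replicates 3 and 4 alone gave 4 cytosolic genes higher. The RNA calls of PARS2, HARS2, YARS2 and EARS2 held in every RNA setting tried. Those of the cytosolic FARSA, FARSB and RARS1, among others, held in every fit that left out a library and from table reads. They also held within replicates 1 and 2 and within replicates 3 and 4. Leaving out 1 library at a time moved the cytosolic RNA median between 0.0031 and 0.0695, the footprint medians between -0.124 and -0.0511 (cytosolic) and between -0.128 and -0.019 (mitochondrial), the mitochondrial genes with higher footprints between 1 and 2, and the efficiency medians between -0.0526 and -0.00653 (cytosolic) and between -0.0504 and 0.0724 (mitochondrial). In efficiency, the fit with no weight per assay and the edgeR interaction on deposited counts each gave 1 cytosolic gene lower, 1 mitochondrial gene higher and 1 lower. Among all 10906 genes tested the unweighted fit called 339 higher and 486 lower, and this edgeR interaction called 124 higher and 301 lower. The main fit called 25 higher and 88 lower. The unweighted fit had made many false calls in an earlier simulation. The edgeR interaction on table reads of both assays, chosen after seeing the data, gave 1 mitochondrial gene higher and 1 lower, against 93 higher and 263 lower among all genes. RNA-seq replicates 1 and 2 alone gave 1 mitochondrial gene lower, against 107 lower among all genes. The cause of these differences was not tested. Same-numbered deviations correlated at 0.08 to 0.23 in RNA, 3 of the 4 pairs above 0.1, and at 0.01 in footprints, and not every library correlated best with its own number, so the numbers were not taken to pair the libraries. Across arms, all 8 correlations within replicates 1 and 2 or within 3 and 4 were above 0 (0.08 to 0.27), and all 8 between these sets were below 0 (-0.26 to -0.09). Deviations from an arm's mean sum to 0, so values below 0 between the sets follow from those above 0 within them. With 2 libraries per arm the footprint correlations can differ only in sign. These sets as a term of the RNA fit, chosen after seeing the data, gave 8 cytosolic and 6 mitochondrial genes higher and 6 of each lower. Among all genes that term gave 5122 higher and 4482 lower. With the replicate number as a block, 1 mitochondrial gene (HARS2) was lower in efficiency, and 9 cytosolic and 6 mitochondrial genes were higher in RNA. Among all genes that block gave 103 lower in efficiency and 5094 higher in RNA. The simulated data held set fold changes and gave all genes of an assay the same variability between libraries. They were therefore not used to state a smallest detectable change for the synthetase genes. The values of PARS2 rest on 38 to 91 footprint reads in DMSO.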
